A study of Rattus norvegicus with 18 samples.

Results

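Aged rat cells grown on a stiff hydrogel were compared with aged cells that had been sorted and sequenced without a gel. The cells are labelled oligodendrocyte progenitor cells (OPCs) and were enriched with magnetic beads. The comparison takes 6 of the 18 libraries of the series, chosen by their titles: 3 aged stiff gel libraries and 3 aged primary libraries. The stiff gel cells were aged cells on a laminin-coated hydrogel in medium with FGF and PDGF. The labels repeat these culture and gel sentences for every sample, the primary ones included, so primary means here that the source label names no gel. No strain, age in months, gel stiffness or time on the gel is given, and the age of a primary library is given only by a letter in its title. For reference, 3 aged soft gel, 3 neonate primary and 3 neonate stiff gel libraries are used. The labels do not say whether replicate libraries came from different animals or cultures, so a p-value measures the spread between libraries only, and that spread may be technical. It is also a spread shared by all 6 groups of the series, not that of the compared libraries alone.

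OPCs are dividing glia of brain and spinal cord that mature into the oligodendrocytes that make myelin. PDGF acts on them through the receptor Pdgfra. Microglia are the resident macrophages of the same tissue. In the healthy brain they carry a set of surface receptors, among them P2ry12 and Cx3cr1, that are known to be lost when the cells are taken into culture or become phagocytic. A hydrogel is a water-filled polymer whose stiffness can be set, and laminin is the matrix protein on which the cells attach.

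Levels are given as scaled TPM, a share of transcripts corrected for length and divided by 1 factor per library, and values of a group are in the order of its replicates. Differences are stiff gel minus primary on the log2(scaled TPM + 1) scale, with a standard error (SE) from limma. A gene is called, and is said to have risen or fallen, where the Benjamini-Hochberg adjusted p over all genes tested is under 0.05. Gene positions are on rn6, as in the files.

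Depth was low in these 6 libraries. Aligned bases came to 12.9 to 31.6 megabases, and the annotated ribosomal RNA entries took 37.8% to 68.5% of the TPM. The remaining read pairs numbered 67862, 53357 and 52797 in the primary libraries and 42151, 22695 and 33024 in the stiff gel libraries, so every stiff gel library was shallower than every primary one. For a transcript of 2 kb, 1 read pair gave 4.87 to 10.5 scaled TPM. Among 14 housekeeping genes 7, with Ppia, Tbp, Hprt1, Tfrc, Pgk1 and Gusb among them, reached 0 in 1 or more of the 6 libraries, so a listed 0 is not evidence of silence. Replicate 1 of each group stood apart: genes above 0 numbered 14999 of 17337 in aged primary replicate 1 and 12371 in aged stiff replicate 1, against 5842 to 8075 in the other 4 libraries. The same libraries covered 77.2% and 54.7% of 1197 olfactory receptor genes, which belong to the nose, against 1.34% to 16.0% in the other 4. These and aged soft replicate 1 (66.9%) are called the broad libraries. Correlations between replicates over genes were 0.39 to 0.72 in aged primary, 0.32 to 0.45 in aged stiff gel and 0.35 to 0.45 in aged soft gel libraries. In neonate primary, soft gel and stiff gel libraries they were 0.713 to 0.739, 0.625 to 0.685 and 0.695 to 0.711.

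Against their label, the aged libraries of both groups held less RNA of OPC genes than neonate primary cells, and the aged primary libraries held far more RNA of microglia genes. Pdgfra, the PDGF receptor that defines OPCs (chromosome 14, 35527926 to 35581031), had levels of 15.9, 0 and 0 scaled TPM in the primary libraries and 11.5, 13.8 and 2.63 in the stiff gel ones, and the 2 groups overlapped (adjusted p = 0.512, limma). In neonate primary cells it was at 53.7, 42.6 and 74.7. The lineage factor Olig2 was at 0.992, 9.34 and 23.9 in primary and 29.8, 0 and 17 in stiff gel libraries. The summed level of 21 OPC genes was 148 to 259 in aged primary, 141 to 697 in aged stiff gel and 1067 to 1347 in neonate primary libraries, and none of the 21 was at 0 in all libraries of either aged group. The summed level of 17 genes of homeostatic microglia was 3194 to 5283 in aged primary, 231 to 526 in aged stiff gel and 190 to 288 in neonate primary libraries. The aged groups are named here by their labels, and the share of their RNA that came from OPCs was not measured. In bulk RNA of this kind, fewer cells of a type and less RNA per cell cannot be told apart.

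Of 15144 genes tested, limma called 182 (1.2%), 44 of them higher (0.291%) and 138 lower (0.911%) on the stiff gel. At an unadjusted p under 0.05 the number was 1633. Voom on read equivalents, fitted to estimated read pairs, called 255 of the 15144, 67 higher and 188 lower. The median difference of all genes was -0.24. It was -0.43 without scaling and 0.03 after quantile normalization, and the calls then split into 25 higher and 134 lower, and 57 higher and 119 lower. Among the genes called lower, 64 were listed at 0 in all 3 stiff gel libraries and 22 were above 0 in all of them. Over all genes tested, 12.3% were at 0 in all stiff gel and 3.41% at 0 in all primary libraries. Of the 2730 genes above 0 in all 6 libraries, 24 were called higher and 22 lower. Over all genes tested the 2 groups did not overlap for 2.4% with stiff gel higher and 7.14% with stiff gel lower. In either direction it was 9.54%. Among called genes the groups did not overlap for 43 of the 44 higher and 137 of the 138 lower. Calls and overlap rest on the same values, so this adds no support to the calls.

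The number of calls turned on single libraries. It was 66 without aged primary replicate 2, 72 without aged primary replicate 3 and 316 without aged stiff replicate 1. When all libraries were thinned to 22695 pairs, a choice made after the data were seen, 86 genes were called, 30 higher and 56 lower, of which 62 were among the 182. With the 3 broad libraries left out, also chosen later, 308 genes were called, of which 111 were among the 182.

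**Figure D1:**
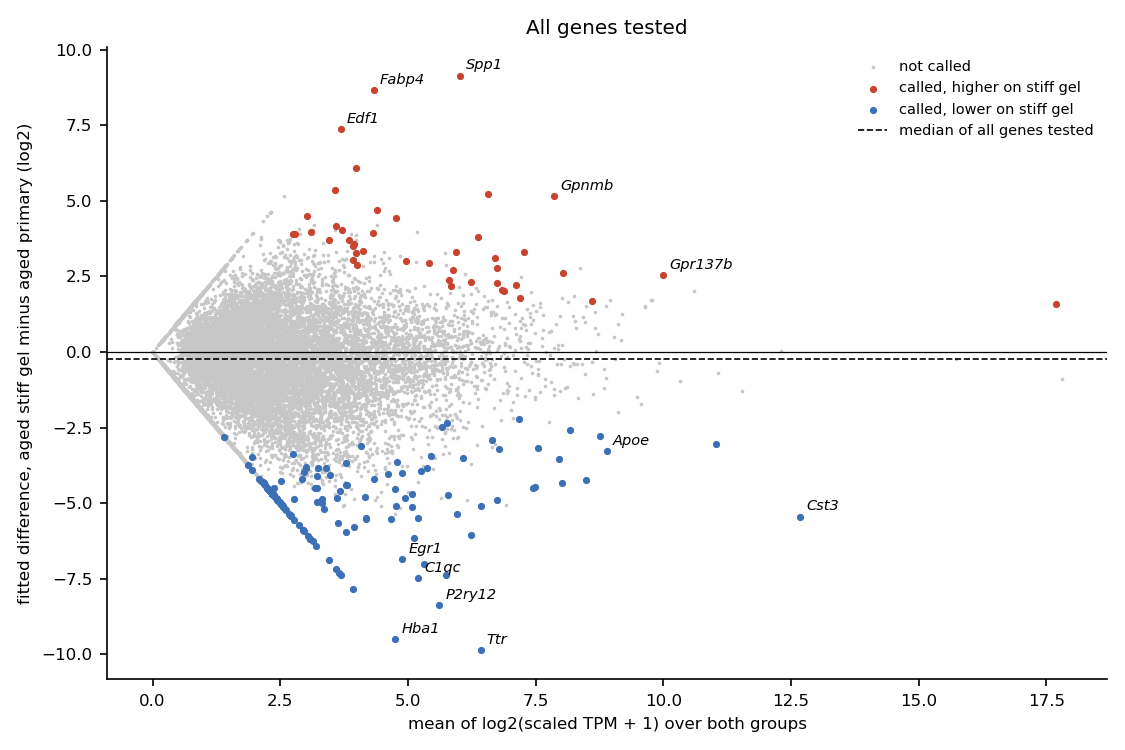
Mean level of each of 15144 genes over the 6 libraries (horizontal axis, log2 of scaled TPM + 1) against the stiff gel minus primary difference (vertical axis, log2). Coloured points are the 44 genes called higher and the 138 called lower, grey points the others, and the dashed line the median of all genes at -0.24.

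Genes of homeostatic microglia fell on the stiff gel. Of 17 tested, 10 fell and 0 rose, against 0.911% of all genes called lower, and their median difference was -4.47 against -0.24 for all genes. Among the 10 were P2ry12, Cx3cr1, Slco2b1, Trem2, Selplg, P2ry13, Csf1r, Tgfbr1 and Slc2a5. The groups did not overlap, with stiff gel lower, for 15 of the 17, against 7.14% of all genes.

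P2ry12, the ADP receptor that guides microglial processes (chromosome 2, 149441601 to 149444548), was at 621, 1164 and 978 in primary and 0, 18.2 and 0 in stiff gel libraries. It was listed at 0 in 2 of the 3 stiff gel libraries, and the third lay far below every primary one. The difference was -8.38 (SE 1.06; adjusted p = 5.59e-05, limma). Where a group reaches 0, such a fitted difference depends on the added 1 and is no measure of fold. Cx3cr1, the receptor for the neuronal chemokine fractalkine (chromosome 8, 128740756 to 128754514), was at 401, 389.8 and 586 against 41.5, 0 and 0 (difference -7.02, SE 1.33; adjusted p = 0.0061, limma). Slco2b1, an organic anion transporter (chromosome 1, 164623598 to 164659992), was at 229, 247 and 267 against 6.97, 0 and 19.8 (difference -5.50, SE 0.96; adjusted p = 0.00308, limma). The primary libraries lay close together for this transporter, far above each stiff gel library.

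Receptors that maintain microglia were among 6 further genes of the list that fell. Csf1r, the receptor for the survival factor CSF1 (chromosome 18, 56431891 to 56458300), was at 248, 354 and 433 in primary and 77.1, 36.9 and 14.8 in stiff gel libraries, a ratio of means of 8.04 (adjusted p = 0.046, limma). Tgfbr1, a receptor for TGF-beta (chromosome 5, 63056081 to 63119635), was at 60.9, 106 and 144 against 2.26, 11.8 and 4.12, a ratio of 17.1 (adjusted p = 0.0355, limma). Trem2, the lipid-sensing receptor of phagocytic microglia (chromosome 9, 14611561 to 14618013), was at 48.5, 62 and 76.7 against 3.76, 0 and 0 (adjusted p = 0.0175, limma). Each stiff gel library lay below each primary one for these 3 receptors. Selplg, a selectin ligand (chromosome 12, 48577905 to 48579196), was at 557, 1001 and 1059 against 16.1, 162 and 18.6 (adjusted p = 0.0143, limma), the nucleotide receptor P2ry13 at 45.9, 9.97 and 75.7 against 0, 0 and 0 (adjusted p = 0.0343, limma), and the fructose transporter Slc2a5 at 110.5, 177 and 204 against 12.4, 6.61 and 0 (adjusted p = 0.0343, limma). Apart from Trem2, these 6 were named after their values were seen.

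Several of these calls ended when 1 library was left out, whereas those of P2ry12, Cx3cr1 and Slco2b1 held without each library in turn. The call of Csf1r ended without aged primary replicate 1, 2 or 3 or aged stiff replicate 2 or 3 (adjusted p up to 0.169), that of Tgfbr1 without aged primary replicate 1, 2 or 3 or aged stiff replicate 1 or 3 (up to 0.156), that of Slc2a5 without aged primary replicate 1, 2 or 3 or aged stiff replicate 2 or 3 (up to 0.139), that of P2ry13 without aged primary replicate 1 or 3 or aged stiff replicate 2 or 3 (up to 0.165), that of Trem2 without aged primary replicate 2 or 3 or aged stiff replicate 2 or 3 (up to 0.0873) and that of Selplg without aged primary replicate 2 or 3 or aged stiff replicate 3 (up to 0.0824). The number of the list called lower was 4 to 12 over these runs, with 6 without aged primary replicate 1, 5 without aged primary replicate 2 and 4 without aged primary replicate 3 or aged stiff replicate 3. It was also 4 with a pseudocount of 0.1 and 6 in thinned libraries. The median of the list was -5.22 to -3.25 over all alternatives. Tmem119 and Sall1, both markers of resident microglia, did not pass: Tmem119 was at 39.3, 79.8 and 182 against 10.1, 0 and 10.8 (adjusted p = 0.0689, limma) and Sall1 at 114, 228 and 190.4 against 15.5, 31.9 and 2.03 (adjusted p = 0.0508, limma).

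**Figure D2:**
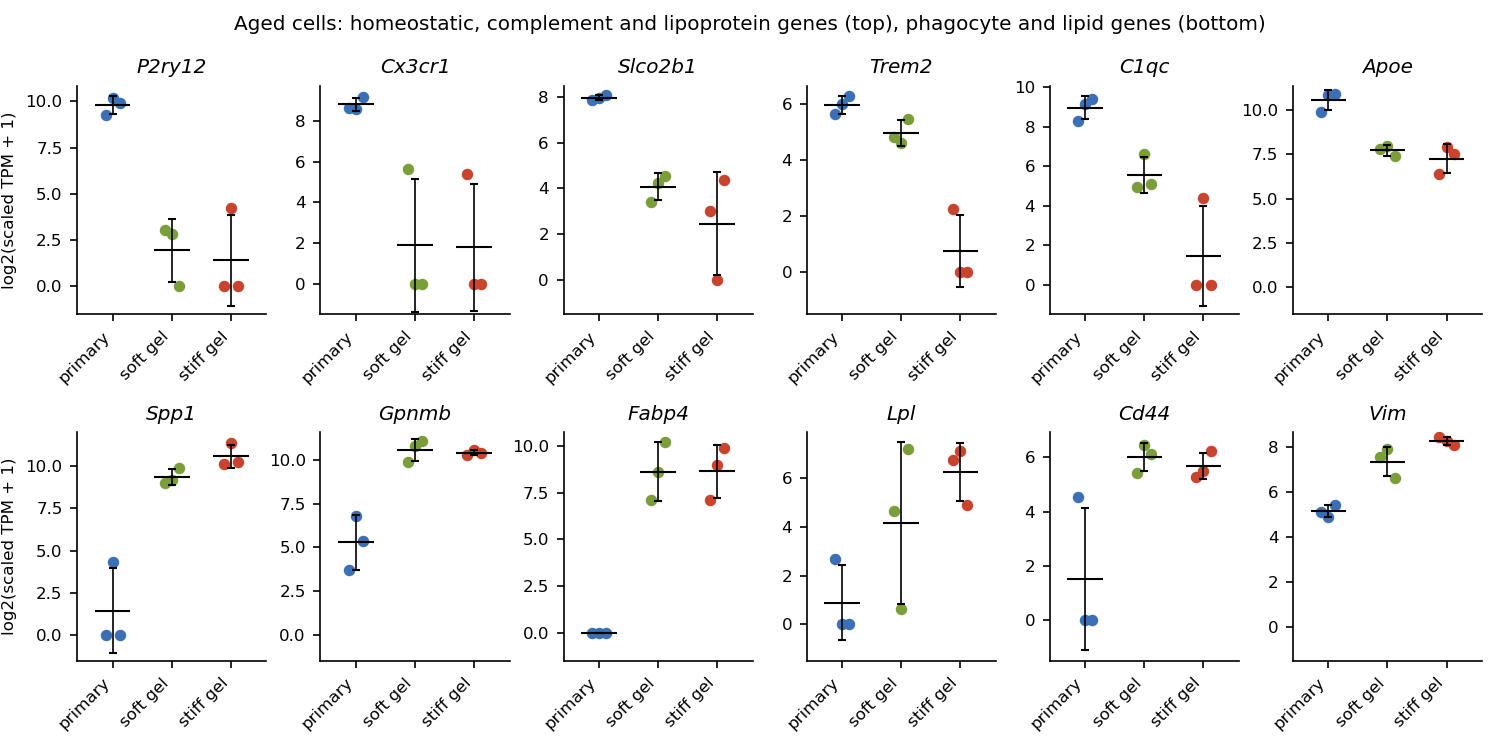
Level of 12 genes (vertical axes, log2 of scaled TPM + 1, each gene on its own scale) in aged primary, soft gel and stiff gel libraries, 1 point per library with the mean and SD of the log2 values. The 6 genes of the upper row are higher in every primary library than in any stiff gel one, and the 6 of the lower row are lower.

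General myeloid genes did not pass the test as the microglia genes did. Of 20 pan-myeloid genes 0 were called by limma. At an unadjusted p under 0.05 1 was higher and 6 lower, against 1633 of all 15144 genes in either direction. Voom called 1 higher and 3 lower, against 67 higher and 188 lower of all genes. The median difference of the 20 was -1.58, and their summed level was 1578 to 2780 in primary and 539 to 1554 in stiff gel libraries. The groups did not overlap for 8 of the 20 with stiff gel lower and for 2 with stiff gel higher, against 7.14% and 2.4% of all genes. Ptprc, the leukocyte antigen CD45, was at 15.7, 12.7 and 19.7 in primary and 7.11, 25.9 and 4.6 in stiff gel libraries (adjusted p = 0.927, limma). Itgam, the integrin CD11b, was at 107, 122 and 137 against 54.5, 106 and 3.39 (adjusted p = 0.469, limma), and Aif1, the actin-binding protein IBA1, at 59.6, 67.7 and 80 against 53.7, 0 and 17.9 (adjusted p = 0.373, limma). Values of Ptprc overlapped between the groups, and those of Itgam and Aif1 did not. Whether the 2 lists differed from each other was not tested.

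Further large falls were those of Tifab, LOC100911347, Tmem176a and Phospho1. Tifab, an inhibitor of TRAF6 signalling (chromosome 17, 9236249 to 9239266), was at 151, 281 and 285 in primary libraries and listed at 0 in all stiff gel ones (difference -7.85, SE 1.01; adjusted p = 6.2e-05, limma). LOC100911347 shares its locus with Adora3, an adenosine receptor, so its reads are uncertain. It was at 110.2, 204 and 176 in primary libraries and 0 in all stiff gel ones (adjusted p = 0.000868, limma). Tmem176a, a membrane protein of myeloid cells named after its values were seen (chromosome 4, 78459341 to 78462415), was at 399, 594 and 962 against 15.6, 0 and 47.3 (adjusted p = 0.00315, limma). Phospho1, a phosphatase known from mineralizing tissue (chromosome 10, 83636518 to 83643859), was at 472, 888 and 789 against 7.39, 0 and 7.43 (difference -7.39, SE 1.15; adjusted p = 0.000938, limma). All 4 calls held without each library in turn.

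The largest falls also included Dnajc28, a J-domain protein, at 74, 231 and 95.5 in primary libraries against 0 in all stiff gel ones (adjusted p = 0.00324, limma), a call that held without each library in turn. The entry Mir1956 was at 83.4, 163 and 215 and the entry LOC100910237 at 61.9, 236 and 304, and both were at 0 in all stiff gel libraries (adjusted p = 0.0204 and 0.0143, limma). What either entry transcribes is uncertain. The levels of Mir1956, a very short entry, rest on only 0.54, 1.05 and 1.33 read pairs. With voom on read equivalents, which works on read pairs and not on levels per length, its difference was -0.80 (adjusted p = 0.835) and it was not called. The call of Mir1956 ended without aged primary replicate 1, 2 or 3 or aged stiff replicate 2 or 3 (adjusted p up to 0.0978), and that of LOC100910237 without aged primary replicate 2 or 3 (up to 0.0824).

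Cst3, cystatin C, a secreted inhibitor of cysteine proteases that is abundant in microglia and cerebrospinal fluid, showed the smallest adjusted p of all genes. At chromosome 3, 143219675 to 143223544, it was at 31000, 45980 and 57720 in primary and 639, 962 and 1610 in stiff gel libraries. The lowest primary value was far above the highest stiff gel value, and the means differed by a factor of 42 (difference -5.45, SE 0.43; adjusted p = 1.35e-08, limma). The largest adjusted p without any 1 library was 9.7e-07. In primary libraries Cst3 made up most of the summed level of 17 cathepsins and cystatins, which was 32522 to 61372 in primary and 2593 to 2669 in stiff gel libraries. Of these 17, 2 fell and 0 rose, against 0.911% of all genes called lower, with a median of -1.30. The other was Ctss, cathepsin S, which cuts antigens for presentation (chromosome 2, 197653137 to 197679768), at 271, 438 and 1060 against 111, 27.1 and 0 (adjusted p = 0.0358, limma). Its call ended without aged primary replicate 1, 2 or 3 or aged stiff replicate 2 or 3 (adjusted p up to 0.177).

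A few complement, lysosome and lipid carrier genes fell. Of 15 complement genes 2 fell and 0 rose, against 0.911% of all genes called lower, with a median of -2.30. C1qc, a chain of the recognition protein C1q (chromosome 5, 155255025 to 155258351), was at 314, 568 and 670.2 in primary and 0, 19.5 and 0 in stiff gel libraries (difference -7.49, SE 1.05; adjusted p = 0.000205, limma), and its call held without each library in turn. C4a fell too (adjusted p = 0.0272, limma), but its entry overlaps C4b and many neighbours, and its call ended without aged primary replicate 2 or 3 or aged stiff replicate 2 or 3 (adjusted p up to 0.0888). C3, the central component, was at 239, 364 and 301 against 27.9, 54.1 and 23.6, and the groups did not overlap, but it missed the threshold (adjusted p = 0.0622, limma).

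Against 0.291% of all genes called higher and 0.911% lower, 1 of 29 lysosome genes rose and 3 fell, with a median of -0.68, and of 11 genes of lipid efflux 1 rose and 2 fell, with a median of -0.05. Npc2, a cholesterol transfer protein of the lysosome (chromosome 6, 108467410 to 108488330), was at 493, 976 and 1239 in primary and 162, 28.8 and 78 in stiff gel libraries, a ratio of means of 10.1 (adjusted p = 0.00684, limma). Psap, the precursor of the saposins that help degrade sphingolipids (chromosome 20, 29831314 to 29856876), was at 140.3, 368 and 402 against 67, 23.3 and 28.5, a ratio of 7.66 (adjusted p = 0.0117, limma). Apoe, the lipid carrier of glia (chromosome 1, 80612894 to 80616820), was at 1550 ± 526 in primary and 166 ± 78.9 in stiff gel libraries (mean ± SD, n = 3), a ratio of 9.33 (difference -3.28, SE 0.58; adjusted p = 0.00314, limma). The call of Npc2 ended without aged primary replicate 3 (adjusted p = 0.0526) and that of Psap without aged primary replicate 2 or 3 (up to 0.0852), while that of Apoe held without each library.

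Over all genes tested 0.911% were called lower. Of 19 genes of MHC and antigen processing 1 fell (median -1.18), namely Ctss, whose call ended without most single libraries. Of 21 interferon genes 1 fell (median -0.51). That was Bst2, tetherin, at 26, 35.7 and 13.2 in primary libraries and 0 in all stiff gel ones (adjusted p = 0.0468, limma), and its call ended whichever of the 6 libraries was left out (adjusted p up to 0.133). Of 25 chemokines and cytokines 0 were called by limma, with 3 higher and 7 lower at an unadjusted p under 0.05 and 2 lower called by voom. Over all 15144 genes 1633 had an unadjusted p under 0.05 in either direction, and voom called 188 lower.

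RNAs of blood and choroid plexus had a far higher summed level in the primary libraries than in the stiff gel ones. Ttr, transthyretin, the thyroid hormone carrier made by the choroid plexus (chromosome 18, 15532964 to 15540177), was at 1871, 1428 and 6779 in primary and 21, 0 and 0 in stiff gel libraries (difference -9.87, SE 1.24; adjusted p = 5.59e-05, limma). Hba1, an alpha globin of red cells that overlaps Hba2 in the annotation (chromosome 10, 15602794 to 15603649), was at 484, 2356 and 332 against 0 in all stiff gel libraries (difference -9.50, SE 1.14; adjusted p = 5.01e-05, limma). Of 14 such genes tested, 2 fell and 0 rose, against 0.911% of all genes called lower, and the median was -1.30. The summed level of the list was 2668 to 7447 in primary and 61.2 to 130.3 in stiff gel libraries. Both calls held without each library in turn. Ptgds, a prostaglandin synthase of meninges, choroid plexus and mature oligodendrocytes (chromosome 3, 2686125 to 2689059), was at 414, 972 and 1415 against 53.2, 4.85 and 154, a ratio of 13.2 (adjusted p = 0.0336, limma), and its call ended without aged primary replicate 1, 2 or 3 or aged stiff replicate 2 (adjusted p up to 0.178). The part of such RNA in the other differences was not tested.

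Some immediate early genes, which cells switch on within minutes of a stimulus, fell on the stiff gel. Of 27 tested 4 fell and 0 rose, against 0.911% of all genes called lower, with a median of -1.59. The groups did not overlap, with stiff gel lower, for 12 of them, against 7.14% of all genes. The summed level was 1899 to 5307 in primary and 647 to 724 in stiff gel libraries. Fos, a subunit of the transcription factor AP-1 (chromosome 6, 109300433 to 109303299), was at 772, 2300 and 2116 in primary and 88, 59.7 and 104 in stiff gel libraries. The lowest primary value was well above the highest stiff gel one, and the means differed by a factor of 20.6 (difference -4.23, SE 0.85; adjusted p = 0.00955, limma). Egr1, a zinc finger transcription factor (chromosome 18, 27657903 to 27660101), was at 116, 506 and 543 against 20.1, 0 and 0 (difference -6.85, SE 1.12; adjusted p = 0.00178, limma). Ier2 (chromosome 19, 25774146 to 25775670) was at 134, 528 and 359 against 0, 0 and 68.2 (adjusted p = 0.00966, limma), and Jund, an AP-1 partner of Fos (chromosome 16, 20485028 to 20486707), at 56, 223 and 136 against 8.8, 35.6 and 26.6, a ratio of 5.84 (adjusted p = 0.0418, limma). Aged primary replicate 1 was the lowest primary library for all 4 genes.

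The call of Egr1 held without each library in turn. That of Fos ended without aged primary replicate 2 or 3 (adjusted p up to 0.0642), that of Ier2 without aged primary replicate 2 or 3 or aged stiff replicate 2 (up to 0.065) and that of Jund without aged primary replicate 2 or 3 or aged stiff replicate 1 or 3 (up to 0.217). Fos and Egr1 were also the 2 of 20 targets of FGF and PDGF signalling that fell (median -0.68), against 0.911% of all genes called lower. Both were also among the 3 called targets of SRF and MRTF.

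The promoters of 3 of these genes are shown because 2 short elements known from stimulus-responsive genes occur in them. They run from 250 bases before to 50 bases after the start of the gene, are taken from RefSeq on GRCr8, and are written 5′ to 3′ on the strand of the gene. Capitals mark the matches. In Egr1 (chr18:26736828-26737127, plus strand) they are 2 CArG boxes, the site bound by SRF, which begin 105 and 83 bases before the start. In Ier2 (chr19:40399123-40399422, plus strand) and Jund (chr16:18769722-18770021, minus strand) they are TGACGTCA, the cyclic AMP response element, which begins 66 and 221 bases before the start.
Egr1: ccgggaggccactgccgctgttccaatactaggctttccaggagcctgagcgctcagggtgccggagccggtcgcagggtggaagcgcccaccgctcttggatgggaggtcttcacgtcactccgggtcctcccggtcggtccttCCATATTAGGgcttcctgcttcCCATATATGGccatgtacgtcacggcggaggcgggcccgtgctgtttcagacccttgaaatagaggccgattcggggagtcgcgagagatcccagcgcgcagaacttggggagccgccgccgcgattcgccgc
Ier2: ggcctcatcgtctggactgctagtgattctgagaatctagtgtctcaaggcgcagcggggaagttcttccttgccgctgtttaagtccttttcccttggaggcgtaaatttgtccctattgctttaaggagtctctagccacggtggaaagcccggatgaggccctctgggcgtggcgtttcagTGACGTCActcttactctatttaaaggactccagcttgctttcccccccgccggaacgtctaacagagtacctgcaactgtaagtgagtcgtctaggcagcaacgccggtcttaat
Jund: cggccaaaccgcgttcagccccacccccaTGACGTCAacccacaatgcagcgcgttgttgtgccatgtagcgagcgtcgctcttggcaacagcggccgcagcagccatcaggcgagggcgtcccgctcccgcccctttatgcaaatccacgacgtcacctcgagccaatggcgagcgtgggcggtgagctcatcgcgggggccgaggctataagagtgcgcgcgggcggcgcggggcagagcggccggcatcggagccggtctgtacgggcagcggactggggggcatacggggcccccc
TGACGTCA reads the same on either strand. For the CArG box only the pattern does, CC and 6 letters of A or T and GG, and a single match need not. Both elements were searched on both strands. Of 33469 RefSeq promoter entries of this length, 1.64% held a CArG box and 1.83% held TGACGTCA. Among the 27 immediate early genes 18 had an entry, of which 4 held a CArG box (Egr1, Egr2, Klf6 and Zfp36) and 5 held TGACGTCA (Btg2, Dusp1, Ier2, Jund and Maff). A match describes the letters only, and binding was not measured.

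A pair of heat shock genes fell. Of 28 genes of heat shock and unfolded protein 2 fell and 0 rose, against 0.911% of all genes called lower, with a median of -0.52. Hspa1b, an inducible HSP70 chaperone, was at 68.4, 161 and 195 in primary and 12.2, 4.62 and 1.4 in stiff gel libraries, a ratio of 23.3 (adjusted p = 0.0204, limma). Reads of Hspa1b are uncertain, since it has a near-identical neighbour copy and overlaps RT1-CE14. Dnajb1, a cochaperone of HSP70 (chromosome 19, 24747178 to 24750919), was at 35.3, 70.2 and 95 against 0, 26 and 0 (adjusted p = 0.0117, limma). Both calls ended without aged primary replicate 2 or 3 or aged stiff replicate 3, at adjusted p up to 0.118 for Hspa1b and 0.0766 for Dnajb1.

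Some genes of lipid-laden, phagocytic macrophages rose on the stiff gel. Of 25 genes of activated phagocytes 4 rose and 2 fell, against 0.291% of all genes called higher and 0.911% lower. Their median difference was 1.23. The 4 were Spp1, Gpnmb, Lpl and Vim, and the 2 were Trem2 and Apoe. Trem2 is on both lists and is also counted among the homeostatic microglia genes that fell. The summed level of the 25 and the untested members was 2296 to 5074 in primary and 8143 to 9870 in stiff gel libraries.

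Spp1, osteopontin, a secreted phosphoprotein that binds integrins (chromosome 14, 6673686 to 6679921), was at 0, 19.3 and 0 in primary and 1123, 2648 and 1223 in stiff gel libraries. The stiff gel libraries were all high, whereas 2 primary libraries were at 0, and the fitted difference was 9.14 (SE 1.14; adjusted p = 5.59e-05, limma). Gpnmb, a membrane glycoprotein of lysosome-rich macrophages (chromosome 4, 78694447 to 78715685), was at 11.9, 109.7 and 40.2 against 1264, 1530 and 1361, which is 54 ± 50.3 against 1385 ± 135 (mean ± SD, n = 3) and a ratio of 25.7 (difference 5.15, SE 0.66; adjusted p = 5.59e-05, limma). Fabp4, a fatty acid carrier of fat cells and macrophages (chromosome 2, 93792666 to 93797267), was listed at 0 in all primary libraries and at 137, 514 and 944 in stiff gel ones (difference 8.67, SE 1.21; adjusted p = 0.000205, limma). These 3 calls held without each library in turn. Lpl, lipoprotein lipase (chromosome 16, 22537687 to 22561487), was at 5.39, 0 and 0 against 106, 139 and 29.3 (adjusted p = 0.0431, limma), and its call ended without aged primary replicate 2 or 3 or aged stiff replicate 1 or 2 (adjusted p up to 0.174).

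Vim, the intermediate filament vimentin (chromosome 17, 80882715 to 80891200), was at 33.5, 28.9 and 41.4 in primary and 349.7, 299.9 and 269.5 in stiff gel libraries, a ratio of 8.86 (adjusted p = 0.0164, limma). The replicates lay close together in both groups. S100a4, a calcium-binding protein of motile cells (chromosome 2, 189997278 to 189999586), was at 57.5, 0 and 63.3 against 159.5, 914 and 1333 (adjusted p = 0.0332, limma). Cd44, the hyaluronan receptor (chromosome 3, 92696292 to 92783658), was at 22, 0 and 0 against 38.2, 44.4 and 73.4 (adjusted p = 0.0492, limma), and Flna, filamin A, which links actin to integrins (chromosome X, 156463953 to 156487245), at 6.95, 1.89 and 7.88 against 48, 39.1 and 41.5, a ratio of 7.7 (adjusted p = 0.0492, limma). The call of Vim ended without aged primary replicate 1, 2 or 3 (adjusted p up to 0.0742), that of S100a4 without aged primary replicate 2 or aged stiff replicate 2 or 3 (up to 0.225), that of Cd44 without aged primary replicate 2 or 3 or aged stiff replicate 1, 2 or 3 (up to 0.225) and that of Flna whichever of the 6 was left out (up to 0.223).

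The other large rises were of genes with varied roles. Gpr137b, a lysosomal membrane protein that binds mTORC1 regulators, was already abundant in primary cells (chromosome 17, 90691110 to 90701534). It was at 379, 369 and 534 in primary and 1745, 4301 and 1955 in stiff gel libraries, a ratio of 6.24 (difference 2.54, SE 0.47; adjusted p = 0.00452, limma). Fxyd2, a regulatory subunit of the sodium pump (chromosome 8, 49710477 to 49716955), was at 6.07, 0 and 0 against 88.5, 183 and 132 (adjusted p = 0.00255, limma). These levels rest on only 0.149, 0 and 0 read pairs in primary and 1.39, 2.09 and 2.63 in stiff gel libraries. Edf1, a transcriptional coactivator (chromosome 3, 2781169 to 2785474), was at 0 in all primary libraries and at 155, 204 and 141 in stiff gel ones (adjusted p = 0.00348, limma). The calls of Gpr137b, Fxyd2 and Edf1 held without each library in turn. Morf4l2, a chromatin protein (chromosome X, 107394475 to 107405564), was at 0, 7.98 and 2.74 against 88.6, 23.4 and 68.8 (adjusted p = 0.00945, limma), and Slc6a12, a betaine and GABA transporter (chromosome 4, 153921199 to 153941333), at 15.7, 0 and 11.3 against 176, 92.8 and 122 (adjusted p = 0.0379, limma). The call of Morf4l2 ended without aged primary replicate 1 (adjusted p = 0.0629) and that of Slc6a12 without aged primary replicate 2 or 3 or aged stiff replicate 1, 2 or 3 (up to 0.237). Ybx1-ps3, a processed copy of Ybx1 whose reads are uncertain, rose too (adjusted p = 0.00966, limma), but not without aged primary replicate 2 (adjusted p = 0.0602).

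Genes of the oligodendrocyte lineage showed few calls. Of 21 OPC genes 0 were called by limma, with 2 higher and 1 lower at an unadjusted p under 0.05 and 0 called by voom, and their median was 0.67. Over all 15144 genes 1633 had an unadjusted p under 0.05 in either direction, and voom called 255. Of 15 genes of committed oligodendrocytes 2 rose and 0 fell, against 0.291% of all genes called higher, with a median of 0.12. Bcas1, a marker of early myelinating cells (chromosome 3, 167957994 to 168033457), was at 2.61, 0 and 1.85 in primary and 20.1, 31.7 and 57.6 in stiff gel libraries (difference 3.98, SE 0.88; adjusted p = 0.019, limma). Lims2, an adaptor at integrin adhesions, was at 1.28, 7.55 and 5.91 against 29.7, 59.7 and 251, a ratio of 23.1 (adjusted p = 0.0117, limma). Lims2 overlaps Gpr17, a receptor of committed progenitors, on the other strand, so their reads cannot be told apart. Gpr17 itself was at 41.7, 18.9 and 12.8 against 55.5, 13.9 and 0. The call of Bcas1 ended without aged primary replicate 2 or 3 or aged stiff replicate 3 (adjusted p up to 0.12) and that of Lims2 without aged primary replicate 1 or aged stiff replicate 3 (up to 0.0808).

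Of 23 genes of mature oligodendrocytes 1, Ptgds, fell (median -0.92), against 0.911% of all genes called lower. Mbp, myelin basic protein (chromosome 18, 79326738 to 79437310), was at 54, 27.5 and 85.1 in primary and 2.3, 11.6 and 79 in stiff gel libraries, with overlapping groups (adjusted p = 0.609, limma). Mog, a myelin surface protein, was at 16.9, 0 and 23.5 against 63.8, 30.2 and 132 (adjusted p = 0.0628, limma). Other genes that rose, named after their values were seen, were Sox2, a stem cell factor, at 8.82, 0 and 12.6 against 48.9, 36.9 and 61.7 (adjusted p = 0.0343, limma), the synaptic adhesion protein Nlgn3 at 0, 6.07 and 12.1 against 26.6, 31.6 and 152 (adjusted p = 0.0165, limma), and the zinc receptor Gpr39 at 0, 11.1 and 6.29 against 43, 40.6 and 80.3 (adjusted p = 0.00931, limma). No primary value of these 3 reached any stiff gel value. The call of Sox2 ended without aged primary replicate 2 or aged stiff replicate 1, 2 or 3 (adjusted p up to 0.225), that of Nlgn3 without aged primary replicate 1 or aged stiff replicate 3 (up to 0.0983) and that of Gpr39 without aged primary replicate 1 (adjusted p = 0.0573).

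The entries of 2 microRNA loci also rose, each annotated on the strand opposite a microRNA known from neural cells, miR-9 or the myelination-linked miR-219. Both were named after their values were seen, both rest on few reads, and neither call held with voom on read equivalents or in thinned libraries. Mir3597-2 (chromosome 2, 11884658 to 11884775) lies antisense to Mir9-2, and Mir2964 (chromosome 3, 8407427 to 8407526) antisense to Mir219-2. The mature sequences from RefSeq are shown because their complementarity shows why the strand matters. Capitals mark the seed, bases 2 to 8 from the 5′ end.
rno-miR-9b-5p: uUCGGUUAucuagcuuuau
rno-miR-9b-3p: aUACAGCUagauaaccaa
rno-miR-9a-5p: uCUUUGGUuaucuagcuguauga
rno-miR-9a-3p: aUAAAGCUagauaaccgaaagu
rno-miR-219b: aGAUGUCCagccacaauucucg
rno-miR-219a-2-3p: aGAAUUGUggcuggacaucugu
rno-miR-219a-5p: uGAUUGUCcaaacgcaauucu
The 9b sequences come from Mir3597-2 and the 9a ones from Mir9-2. All 18 bases of 9b-3p pair with 9a-5p, and all 19 bases of 9b-5p pair with 9a-3p. A run of 20 of the 22 bases of 219b, from Mir2964, pairs with 219a-2-3p, from Mir219-2. No 2 of the 7 share a seed.

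Mir3597-2 was at 4.12, 21.7 and 92.8 in primary and 346, 129 and 654 in stiff gel libraries, a ratio of 9.52 (adjusted p = 0.00706, limma), and in neonate primary cells at 1896, 2443 and 1229. Mir9-2 was listed at 0 in all 6 aged libraries of the comparison. Mir2964 was at 0, 0 and 69.8 against 135, 137 and 66.4, with aged primary replicate 3 within the stiff gel range (adjusted p = 0.0445, limma), and Mir219-2 at 0, 0 and 0 against 0, 409.5 and 107 (adjusted p = 0.276, limma). The reads come from a total RNA kit counted without strand, so these are levels of transcripts over the loci and not of mature microRNAs. Read pairs of Mir3597-2 numbered 0.05, 0.26 and 1.08 in primary and 2.69, 0.727 and 6.42 in stiff gel libraries, and its voom difference was 2.51 (adjusted p = 0.186). Mir2964 had 0, 0 and 0.687 and 0.887, 0.657 and 0.553 read pairs, less than 1 in every library, and a voom difference of 1.49 (adjusted p = 0.576), and it was called in 5 of 19 alternatives. The call of Mir3597-2 ended without aged primary replicate 1 (adjusted p = 0.0615) and that of Mir2964 without aged primary replicate 1 or 2 or aged stiff replicate 1, 2 or 3 (up to 0.248).

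Ribosomal protein genes fell in part on the stiff gel. Of 78 tested 9 fell and 0 rose, against 0.911% of all genes called lower, with a median of -1.14. At an unadjusted p under 0.05 the numbers were 33 lower and 2 higher, against 1633 of all 15144 genes in either direction. The summed level of the 78 was 12374 to 25445 in primary and 8849 to 16172 in stiff gel libraries, and these ranges overlapped. Fau, which encodes a ubiquitin-like protein fused to a small subunit protein (chromosome 1, 221420312 to 221421827), was at 737, 1313 and 1517 against 270.1, 245 and 68.3, a ratio of 6.11 (adjusted p = 0.014, limma). Rps16, of the small subunit (chromosome 1, 85405499 to 85408444), was at 48.7, 17.6 and 32.9 against 0 in all stiff gel libraries (adjusted p = 0.00684, limma). Among the others were Rps12, Rps20, Rpl7a, Rpl29, Rpl35a and Rpl37, at adjusted p of 0.0336, 0.046, 0.0266, 0.0358, 0.0428 and 0.0358 (limma). Genes of this family have many near-identical copies, so their counts are uncertain, and Rps20, Rpl7a, Rpl35a and Rpl37 are annotated at several loci.

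Of the 8 calls named here only that of Rps16 held without each library in turn, and it rests on 4.1, 1.47 and 2.65 read pairs and ended with voom on read equivalents (adjusted p = 0.245). The call of Fau ended without aged primary replicate 2 or 3 or aged stiff replicate 3 (adjusted p up to 0.0857), those of Rps12 and Rpl35a without aged primary replicate 1, 2 or 3 or aged stiff replicate 2 or 3 and without aged primary replicate 1, 2 or 3 or aged stiff replicate 1 or 2 (up to 0.132 and 0.174), that of Rps20 whichever of the 6 was left out (up to 0.196), that of Rpl7a without aged primary replicate 1, 2 or 3 or aged stiff replicate 2 (up to 0.12), that of Rpl29 without aged primary replicate 1 or 3 or aged stiff replicate 1 or 3 (up to 0.137) and that of Rpl37 without aged primary replicate 1, 2 or 3 or aged stiff replicate 1 or 2 (up to 0.2). With voom on read equivalents 2 of the 78 were called lower and 0 higher, against 188 lower and 67 higher of all 15144 genes.

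The lists of oxidative phosphorylation and cholesterol synthesis held 1 call each, against 0.291% of all genes called higher. Of 63 genes of oxidative phosphorylation 1 rose and 0 fell (median -0.18), namely Cox5b, a subunit of cytochrome c oxidase (chromosome 9, 43259706 to 43262039), at 39.2, 217 and 135 against 309, 607 and 1414, a ratio of 5.96 (adjusted p = 0.0298, limma). Of 22 genes of cholesterol synthesis 1 rose and 0 fell (median -0.22), namely Fdps, which makes farnesyl diphosphate (chromosome 2, 188403595 to 188413219), at 17.8, 82.8 and 71.2 against 154, 241 and 350, a ratio of 4.34 (adjusted p = 0.043, limma). The call of Cox5b ended without aged primary replicate 1 or 3 or aged stiff replicate 2 or 3 (adjusted p up to 0.152) and that of Fdps without aged primary replicate 1, 2 or 3 or aged stiff replicate 2 or 3 (up to 0.204).

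Among lists tied to the mechanics of the substrate, the 17 YAP and TAZ targets and the 10 mechanosensitive channels held 0 calls. The others held 1 to 3 calls each, against 0.291% of all genes called higher and 0.911% lower. Of 26 integrin and adhesion genes 2 rose, Cd44 and Lims2 (median 0.17). Of 35 actin and myosin genes 1 rose, Flna (median 0.39), and of 14 targets of SRF and MRTF 1 rose, Flna, and 2 fell, Fos and Egr1 (median -0.77). Of 24 matrix genes and proteases 1 fell (median 0.88), namely Sparc, a secreted matrix protein that microglia also make (chromosome 10, 40742390 to 40764141). It was at 262, 348 and 686 in primary and 30.3, 28.6 and 0 in stiff gel libraries (adjusted p = 0.0061, limma), and its call held without each library in turn. Piezo1, a stretch-gated channel (chromosome 19, 55305494 to 55367353), was at 15.9, 8.26 and 8.88 against 27.2, 25.5 and 5.41, with overlapping groups (adjusted p = 0.937, limma). Mki67, which marks dividing cells (chromosome 1, 207993895 to 208020454), was at 28, 50.1 and 15.9 against 4.25, 4.51 and 13.9 (adjusted p = 0.369, limma).

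In 17 of the 38 lists limma called 0 members. They held 308 genes tested, of which 16 were higher and 36 lower at an unadjusted p under 0.05, and voom called 3 higher and 7 lower. Over all 15144 genes 1633 had an unadjusted p under 0.05 in either direction, and voom called 67 higher and 188 lower. Besides the pan-myeloid, chemokine and OPC lists, the lists without limma calls were astrocyte, neuron, vessel, glycolysis, fatty acid synthesis, S phase, G2 and M phase, senescence, oxidative stress, hypoxia, YAP and TAZ targets, mechanosensitive channels, potassium channels and housekeeping genes. Their medians were -0.75, -0.67, -1.13, -0.04, -0.48, 0.21, 0.06, -0.90, 0.68, -0.58, 0.26, 0.10, -0.15 and -0.01, in that order from the astrocyte list on. Fth1, the ferritin heavy chain, was the most abundant member of the oxidative stress list on the gel, at 257, 1295 and 1343 in primary and 4426, 2843 and 2423 in stiff gel libraries (adjusted p = 0.126, limma). The plot of differences by list shows the spread within each.

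**Figure D3:**
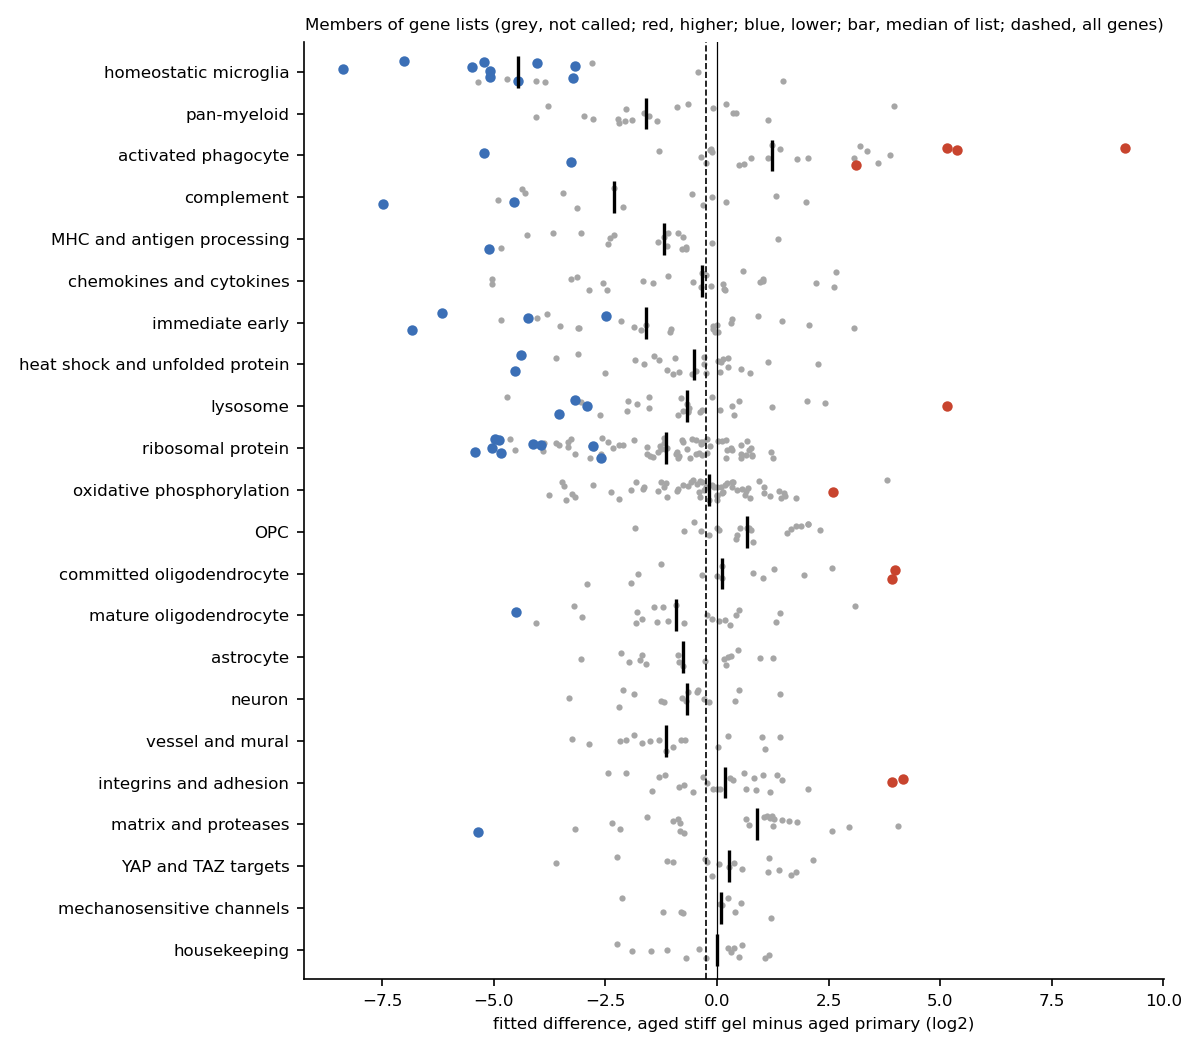
Stiff gel minus primary difference (horizontal axis, log2) of every tested member of 22 of the gene lists (rows). Red and blue points are members called higher and lower, grey points the others, a bar the median of a list and the dashed line that of all genes. Homeostatic microglia genes have a median of -4.47 and activated phagocyte genes one of 1.23.

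The aged soft gel libraries show whether values of the stiff gel group lie near those of another gel. Both gel comparisons use the same primary libraries, so their differences from primary are set side by side and not counted together. On the soft gel 76 genes were called against primary (0.502%), 37 higher (0.244%) and 39 lower (0.258%). P2ry12 was at 7.34, 6.1 and 0 on the soft gel, against 0, 18.2 and 0 on the stiff gel, Cst3 at 2419, 1319 and 1521 against 639, 962 and 1610, and Fos at 47.9, 16.6 and 54.5 against 88, 59.7 and 104. Among genes that rose, Spp1 was at 520.5, 579 and 937 on the soft gel against 1123, 2648 and 1223, Gpnmb at 958, 1781 and 2183 against 1264, 1530 and 1361, and Fabp4 at 135, 386 and 1195 against 137, 514 and 944. For these 6 genes the stiff minus soft difference lay between -0.76 (Cst3) and 1.23 (Spp1), with SE of 0.43 and 1.14, and no adjusted p by limma was under 0.538. C1qc was at 30.1, 96.4 and 33 and Trem2 at 27.2, 23 and 43.2 on the soft gel, above 0, 19.5 and 0 and 3.76, 0 and 0 on the stiff one in every library (adjusted p = 0.143 and 0.156, limma). The summed level of the homeostatic microglia list was 296 to 399 on the soft and 231 to 526 on the stiff gel.

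The test of stiff against soft gel called 12 genes (0.0792%), all lower on the stiff gel, while 1646 genes had an unadjusted p under 0.05 and the median of all genes was -0.59. The 12 were Ascl3, Atp6v0e2, Bsnd, Dctn6, Defb13, Lgals9, Olr1457, Olr244, Pcbp2, Pde6d, Rpl27 and Stx4. Olr1457 and Olr244 are olfactory receptor genes, of which the soft gel libraries covered 66.9%, 39.2% and 30.8% and the stiff gel libraries 54.7%, 16.0% and 1.34%. Olr244 was at 21.6, 22.9 and 15.3 on the soft gel and at 0 in all stiff gel and primary libraries. With the share of olfactory receptor genes covered in each library as a covariate, chosen after the data were seen, 38 genes were called. Rpl27, a ribosomal protein, was above 0 in every library, at 129.5, 170.1 and 255 on the stiff and 792, 658 and 697 on the soft gel (difference -2.0; adjusted p = 0.0382, limma). Dctn6, a subunit of the dynein activator dynactin (chromosome 16, 61795544 to 61814734), was at 0 in all stiff gel libraries, at 32.4, 31.2 and 29.5 on the soft gel and at 18.5, 49.7 and 50.5 in primary cells (adjusted p = 0.00452 against soft gel and 0.00022 against primary, limma). Atp6v0e2, a subunit of the proton pump of lysosomes (chromosome 4, 78168117 to 78171265), was at 8.59, 0 and 0, 31.2, 31.1 and 27.1 and 18.4, 41.8 and 32.8 in the same order of groups (adjusted p = 0.0455 and 0.00983, limma). Pde6d, a carrier of lipid-modified proteins, and Stx4, a membrane fusion protein, were the other 2 called in both tests.

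The call of Dctn6 against primary held without each library in turn, but it rests on 1.84, 4.89 and 4.81 read pairs in primary libraries and ended with voom (adjusted p = 0.0706), as did those of Atp6v0e2, Pde6d and Stx4. Those of Atp6v0e2, Pde6d and Stx4 against primary ended without aged primary replicate 2 or 3, without aged primary replicate 1 or 2 and without aged primary replicate 2 or 3 (adjusted p up to 0.0602, 0.056 and 0.0596). Leaving out aged soft replicate 1 or 3 turned the 12 calls into 6 or 3, and leaving out aged stiff replicate 1 or 3 into 69 or 60. With no scaling 1 gene was called, and after quantile normalization 20, of which 3 were higher. With the 3 broad libraries left out the number was 117, of which 4 were among the 12. Voom called 6, of which 0 were among the 12.

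Neonate cells give the same stiff gel against primary contrast in other libraries. There 10 genes were called (0.066%). Fos, Hba1 and Ttr fell at both ages. In neonates Fos was at 801, 1108 and 1031 in primary and 15.6, 35.5 and 0 in stiff gel libraries (adjusted p = 0.000208, limma), Ttr at 561, 272 and 1209 against 0 in all stiff gel libraries (adjusted p = 0.00048, limma) and Hba1 at 99.4, 60.7 and 56.2 against 0 in all (adjusted p = 0.0236, limma). Of the 44 genes that rose in aged cells 35 were also higher on the stiff gel in neonates by sign alone, and of the 138 that fell 78 were also lower. The median neonate difference of all genes tested was 0. The share of all genes with each sign was not counted, so these 2 counts do not measure agreement between the ages. P2ry12 was at 38.7, 48.2 and 64.8 in neonate primary and 1.8, 0 and 0 in neonate stiff gel libraries (difference -5.16; adjusted p = 0.054, limma). Spp1 was at 10.3, 0 and 33.4 against 39.6, 43.9 and 32.9 and Gpnmb at 22.6, 22.7 and 15.8 against 91.7, 35.8 and 16.7, with adjusted p of 1 and 1 (limma).

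The aged difference minus the neonate one was tested as an interaction term, and 13 genes were called (0.0858%), 12 lower and 1 higher. Cst3 fell in aged cells but was at 753, 919 and 1650 in neonate primary and 1154, 1445 and 1030 in neonate stiff gel libraries, so the differences were -5.45 and 0.20 (interaction -5.64, SE 0.61; adjusted p = 1.19e-05, limma). Apoe was at 153, 94.4 and 261 against 561, 1129 and 321 in neonates, where the stiff gel values were the higher ones, and the aged difference was -3.28 (interaction -5.19, SE 0.82; adjusted p = 0.00674, limma). The aged stiff gel levels of both genes overlapped those of neonate primary cells, and the aged primary levels of Cst3 were above every neonate level. Dctn6 was at 30.3, 86.2 and 25.8 against 38.3, 188 and 51.6 in neonates (interaction -6.02; adjusted p = 0.0102, limma). Fau was at 662, 72.3 and 226 against 1243, 942 and 1229 (interaction -5.11; adjusted p = 0.00705, limma).

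Kctd18, a BTB domain protein that overlaps Sgol2 (chromosome 9, 64852301 to 64916652), was the 1 gene called higher. It was at 10.7, 41.2 and 14.1 in aged primary and 100.3, 153 and 453 in aged stiff gel libraries (adjusted p = 0.00367, limma, a call that held without each library in turn), against 399, 696 and 482 and 293, 260.4 and 174 in neonates (interaction 4.41, SE 0.84; adjusted p = 0.0295, limma). Atp5o, a subunit of the mitochondrial ATP synthase (chromosome 11, 32081606 to 32087918), had the largest interaction, -8.71 (SE 1.43; adjusted p = 0.00705, limma). It was at 5.25, 13.1 and 27.7 and 0 in all in aged primary and stiff gel libraries, and at 27.5, 0 and 0 and 51.4, 97.6 and 159.9 in neonates, and neither age alone was called. Pik3r3, a regulatory subunit of phosphoinositide 3-kinase (chromosome 5, 135074993 to 135142291), was at 9.98, 8.75 and 6.05 and 0 in all in aged libraries and at 18.7, 9.01 and 0 and 68.3, 84.1 and 46.5 in neonates (interaction -6.68; adjusted p = 0.0382, limma). In aged primary libraries Atp5o rests on only 0.381, 0.943 and 1.93 read pairs and Pik3r3 on 1.42, 1.23 and 0.823, and the stiff gel libraries were shallower. Mir3596d, which overlaps Mirlet7f-1 on the other strand and rests on less than 1 read pair in every aged library of the comparison, was at 59.9, 58.4 and 18.9 and 0 in all in aged libraries and at 5.33, 26.8 and 17.9 and 47.8, 24.4 and 77.3 in neonates (interaction -7.0; adjusted p = 0.0415, limma). Its aged difference went from -5.38 to -0.18 with voom (adjusted p = 0.964), and that call ended. For P2ry12, Spp1 and Gpnmb the interaction did not pass, at adjusted p of 0.755, 0.122 and 0.0698 (limma).

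Leaving out aged primary replicate 1 or 3 turned the 13 calls into 21 or 5, and leaving out aged stiff replicate 1 or 3 into 32 or 20. Leaving out neonate primary replicate 2 or 3 turned them into 8 or 7, and leaving out neonate stiff replicate 2 or 3 into 4 or 6. Without scaling 7 genes were called, 5 higher and 2 lower, and after quantile normalization 14, 6 higher and 8 lower, so the direction of the age difference as a count depends on the scaling.

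**Figure D4:**
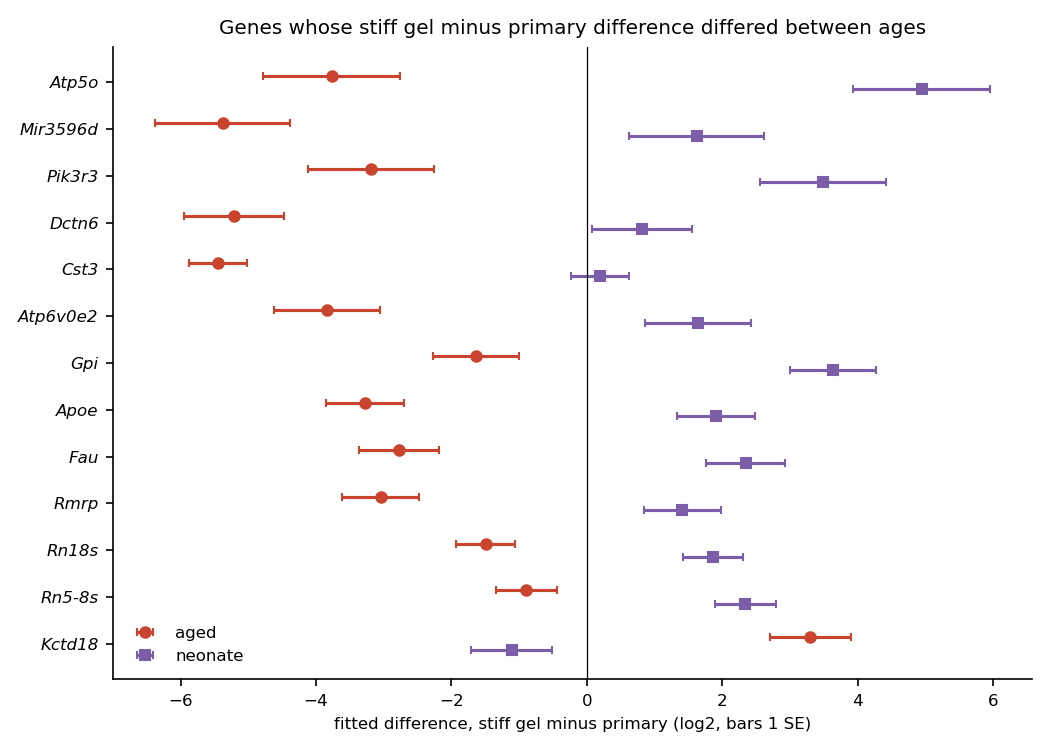
Stiff gel minus primary difference (horizontal axis, log2, bars 1 SE) in aged and in neonate cells for the 13 genes (rows) called in the test of the difference between ages. Cst3 lies at -5.45 in aged and 0.20 in neonate cells, and Kctd18 at 3.30 and -1.11.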

How the data were processed

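Total RNA of rat cells was sequenced in 18 libraries, 3 in each of 6 groups taken from the labels, in pairs of 150 bases. The deposited transcript files give TPM, FPKM and coverage per transcript, per the file headers made by the authors with StringTie 1.3.2d limited to annotated transcripts of UCSC rn6 and with no strand option, although the kit was stranded, per the labels' protocols. The submitters' processing notes also name Trimmomatic, HISAT2 and Bowtie, with no role. TPM was summed per gene (17337 genes, 550 of them at several loci, whose coordinates are not printed).

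Read pairs were estimated from coverage times transcript length at 300 bases per pair, and aligned bases from the ratio of coverage to FPKM. Scaling factors for TPM were medians of ratios over the 1644 genes detected in every library. The 15144 genes reaching a TPM of 1 in 3 or more libraries were fitted as log2(scaled TPM + 1) in limma 3.58.1 (R 4.3.3, trend in the variance) with 6 group means, so that all groups share the spread, with Benjamini-Hochberg adjustment and a threshold of 0.05. Replicates correlated more closely in neonate than in aged gel groups, and this fit made no allowance for that. A fit of aged primary and aged stiff gel libraries alone called 81 of 10110 genes tested. Scripts were tested on simulated data. Precision is limited by the depth given with the results.

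The comparison, the 38 gene lists and the alternatives were chosen with earlier results of these data known. Genes were named by a rule: the 12 largest rises and 12 largest falls among called genes whose mean TPM reached 5 in the higher group and whose groups did not overlap, up to 4 called members of each list, the 4 largest called each way in the test between ages, and always Pdgfra, Mbp, Mki67 and Piezo1. Called genes outside it were named after their values were seen: the further homeostatic microglia, ribosomal protein and stiff against soft gel genes, Vim, Tmem176a, Gpr137b, Gpr39, Sox2, Nlgn3, Rmrp, Mir3597-2 and Mir2964. A few genes are not reported here. Alternatives were voom on read equivalents, array weights, quantile normalization, no scaling, pseudocounts of 0.1 and 5, no TPM filter and one of 5, a fit of the compared groups alone, a block for the replicate number, and omission of 1 library at a time. Promoter and microRNA sequences are from RefSeq on GRCr8.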

Additional observations from a re-analysis of the deposited data

Results flagged for a closer look

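The stiff gel minus primary difference was not the same at both ages for 13 genes in limma's test of the aged difference minus the neonate one, given here on the log2(scaled TPM + 1) scale. For 12 the value was below 0: Atp5o at -8.71, Mir3596d at -7.0, Pik3r3 at -6.68, Dctn6 at -6.02, Cst3 at -5.64, Atp6v0e2 at -5.48, Gpi at -5.26, Apoe at -5.19, Fau at -5.11, Rmrp at -4.46, Rn18s at -3.36 and Rn5-8s at -3.23. Kctd18 was the 1 above 0, at 4.41. Of the 13, Atp5o, Pik3r3, Gpi, Rn18s and Rn5-8s were not called in aged cells alone. The aged values of Atp5o, Pik3r3 and Mir3596d rest on very few read pairs.

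Gpi, a glycolytic enzyme (chromosome 1, 90063411 to 90091287), was at 35.6, 53.7 and 49.6 in aged primary and 9.25, 23.1 and 12.7 in aged stiff gel libraries (adjusted p = 0.283, limma), and at 27.8, 5.23 and 18.1 and 196, 248 and 132 in neonates (adjusted p = 0.0122, limma). Rmrp, the RNA of a ribonuclease that acts on ribosomal RNA precursors, was at 3326, 7949 and 8373 in aged primary and 1263, 171 and 1807 in aged stiff gel libraries, and at 3353, 3080 and 3542 and 5984, 11540 and 9973 in neonates (interaction, adjusted p = 0.0153, limma). The ribosomal RNA entries Rn18s and Rn5-8s have overlapping or repeated loci, so their values are uncertain. Rn18s was at 802, 1176 and 1820 in aged primary and 882, 234 and 368 in aged stiff gel libraries, and at 1219, 775 and 1684 and 3181, 6153 and 3935 in neonates (interaction, adjusted p = 0.0217, limma). Rn5-8s was at 170700, 489900 and 359700 in aged primary and 402600, 136700 and 85390 in aged stiff gel libraries, and at 180400, 137700 and 154900 and 586600, 1293000 and 654700 in neonates. Atp6v0e2 was at 81, 33.3 and 27.9 in neonate primary and 136, 139 and 127 in neonate stiff gel libraries (interaction, adjusted p = 0.0415, limma).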

How the results depend on the processing

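All 72 called genes named kept their direction in the alternatives run, 19 each and 18 for Mir1956, Bst2 and Mir3596d, which were not tested in thinned libraries. Apart from Mir2964 and Rpl37 these were genes whose groups did not overlap. For such genes leaving out a library or changing the pseudocount or filter could hardly turn the direction. The kept direction is therefore no test of robustness. Of the 72, 26 stayed called without each of the 6 libraries in turn, and 18 stayed called in every alternative. Leaving out aged primary replicate 1, 2 or 3 ended 25, 37 and 36 of the 72 calls, and leaving out aged stiff replicate 1, 2 or 3 ended 13, 24 and 28. Low depth, which was lower in every stiff gel library, limits what can be said of genes at 0, and voom on read equivalents ended 21 of the 72 calls, among them entries with less than 1 read pair. Array weights ended 38, a fit of only the groups compared 30, a pseudocount of 0.1 24, omission of the 3 broad libraries 20, quantile normalization 16 and no scaling 12 of the 72, and thinning ended 33 of 69.

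The 182 calls of stiff gel against primary became 282 with a pseudocount of 5, 97 with array weights, 81 with only the groups compared, 308 without the 3 broad libraries and 86 in thinned libraries, and ranged from 66 to 316 with 1 library left out. The 13 calls of the test between ages became 33 with a pseudocount of 5, 7 without scaling, 37 with voom, 49 with array weights, 55 without the broad libraries, 3 in thinned libraries and 29 with the share of olfactory receptor genes covered as a covariate, and ranged from 4 to 32. The 12 calls of stiff against soft gel became 7 with a pseudocount of 5, 6 with a TPM filter of 5, 1 without scaling, 20 after quantile normalization, 6 with voom (3 higher and 3 lower), 117 without the broad libraries and 38 with the covariate, and ranged from 3 to 69. Of the 6 voom calls 0 were among the 12, and of the 117 without the broad libraries 4 were. With array weights and with only the groups compared limma called 0 in the stiff against soft test, with 1187 and 750 genes at an unadjusted p under 0.05. Thinning, the covariate and the omission of the broad libraries were chosen after seeing the data. The cause of these changes was not tested. The remaining alternatives left each count within 1.5 times.

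With the replicate number as a block the counts were 190, 13 and 13, against 182, 13 and 12. The block ended the calls of Csf1r and Flna (adjusted p = 0.0538 and 0.056, limma), which left 9 homeostatic microglia genes called lower, and ended no other call of a named gene. The numbers were not taken to pair the samples, and 3 libraries a group are too few to settle whether they do. Deviations of same-numbered primary and stiff gel libraries correlated at 0.21, 0.02 and 0.15. Each sample correlated best with its own number apart from aged primary replicate 2, which correlated at 0.12 with aged stiff replicate 3, a hint from the data and not the design.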
